A study of Arabidopsis thaliana with 26 samples.

Results

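The 196 probe sets described here read higher in mature leaves of Arabidopsis thaliana than in developing leaves at every time sampled, while holding a similar level in developing leaves at 24 and 96 h. A probe set is the group of short oligonucleotides by which the ATH1 array reads one transcript. They came from a table of 22810 probe sets, 64 of them controls, on 26 arrays. The members were chosen by measured values: group means of log2(signal + 16) were taken, 6268 probe sets had a mature mean signal of at least 60 and developing means at 96 and 24 h within 0.25 of each other, and these were ranked by a score, the mature mean minus the highest of the 6 developing means. The 200 highest were taken and 4 were left out because the choice excludes a few named genes, UGT genes and cytochrome P450 genes. Those 4 were ORA47, SAG29, CYP78A9 and a probe set shared by CYP71B20 and CYP71B19. Because the score is the difference between mature and developing leaves, that difference is given below as a description with no test.

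All plants were of accession Col-0, were kept in compost at 50% humidity, 20 °C and a day of 10 h, and all belonged to the treatment that the series title calls elevated CO2 with ambient light. Mature leaves were taken after 24 h of it (2 arrays). Developing leaves, labelled as leaf insertions 19 to 21, were taken after 2, 4, 12, 24, 48 and 96 h (4 arrays each). Arrays of untreated plants are not analysed here, so nothing below measures the response to CO2, and the labels do not say which leaves of a plant received it. Leaf age therefore cannot be told apart from any difference in exposure. If all treatments began at the same clock time, the 2, 4 and 12 h samples also differ in time of day from those at 24, 48 and 96 h. The labels give no clock times. The labels number the replicates without saying that they are separate plants, so p-values measure only how far these samples differ among themselves, which may be technical spread.

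A leaf that has finished expanding no longer divides its cells; it exports sugar to growing leaves, answers wounding and touch through calcium and the hormone jasmonate, and later enters senescence, in which its proteins are taken apart and its nitrogen is sent elsewhere. Ubiquitin ligases mark proteins for breakdown, calmodulin-like proteins bind calcium, and expansins loosen cell walls. Whole leaves were measured, so more cells of a type and more RNA per cell cannot be told apart. The labelled leaf ages were checked against marker genes. Of the markers of dividing cells, 6 of 6 tested were lower in mature leaves than in developing leaves at 24 h (limma, adjusted p under 0.05), and their summed signal was 389 and 405 on the mature arrays, against 1398 to 1496 on the developing 24 h arrays. All 5 tested markers of young leaves were lower as well, with sums of 222 and 231 in mature leaves and 718 to 757 in developing leaves at 24 h. In the same comparison 30.7% of all probe sets tested were lower and 24.1% higher. The 4 tested mesophyll genes summed to 14380 and 15357 in mature leaves, inside the 9533 to 17765 of developing leaves at 24 h, and 1 of the 4 was higher in mature leaves. SWEET11, a sucrose exporter of the phloem, read 611 and 641 in mature leaves and 86.6 to 138 in developing leaves at 24 h; the guard cell factor FMA read 37.5 and 33.9, against 52.4 to 67.2. The trichome gene TRY read 105 and 148, against 50.3 to 66.5, and the root gene PYK10 read 10.5 and 4.58, against 12.9 to 20.7. Markers of epidermis, xylem, seeds and flowers had no tested probe set that could be matched by name. Of the 16154 probe sets tested, 6851 had no annotated gene, so this gap does not show a low signal of those markers. The part of a changed cell makeup in the members' levels was not tested.

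Of the 196 members, 82 read exactly 1 annotated gene, 3 read several and 111 were unlisted in the annotation used here. Unlisted probe sets made up 56.6% of the members and 38.4% of all probe sets, and they could not be set against the list of excluded genes. Of the 82 genes, 14 have a symbol in the annotation used here. The other 68 carry only a locus code there, and their roles were not looked up. No gene was read by more than 1 member. All 196 also passed the filter for testing (above the 40th percentile of the array, which lay between 24.3 and 32.6, on at least 2 arrays). The mature leaf arrays alone can satisfy that filter.

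The score ran from 1.05 to 4.25 with a median of 1.53, and it passed 2 for 47 members and 3 for 9. Mature means ran from 62.0 to 1793 (median 168), and 10 members had a mature mean over 1000. In developing leaves the median signal of a member ranged from 0.726 to 526, with a median of 30.9. Both mature arrays lay above all 24 developing arrays for 195 of the 196 members, against 17.2% of the 16154 probe sets tested, a share that the choice of members fixes. The remaining member, shared by AT1G53903 and AT1G53885, read 213 and 86.3 in mature leaves and at most 111 in developing leaves. For 157 members the lower mature array was more than 2 times the highest developing array. The score favours such a gap, and its share over all probe sets tested was not computed, so nothing is read from this count.

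Being higher in mature leaves did not mean reading at the bottom of the scale in developing ones. Detection calls were not used, so these signal levels do not show whether a gene was expressed or silent. In 49 members all 6 developing means lay below 24.3, the smallest of the arrays' 40th percentiles, and in 29 of these every developing array did. The other 147 reached that level in at least 1 developing group, and 41 of them had a developing mean over 100. Among the 82 single genes, 21 lay below 24.3 at all 6 times and 61 did not.

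The leading single genes show both kinds. The 8 highest scores fell on 7 unlisted probe sets and on 1 shared by AT2G32880 and AT2G32870, which read 127 and 166 in mature leaves and at most 4.46 on any developing array. AT1G64360 had the highest score of a single gene, 3.07: it read 146 and 223 in mature leaves, and 1.56 at lowest, 4.58 in the median and 13.7 at highest over the 24 developing arrays. ZCF37 read 140 and 117 in mature leaves, while its developing arrays ran from 2.44 to 5.72 with a median of 3.48. Its developing signals are close to the bottom of the scale, and the added 16 makes the score of 2.85 understate the ratio.

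AT4G29780 read 475 and 328 in mature leaves, against 16.5 to 46.3 (median 31.4) in developing leaves. That developing median lay within the range of the arrays' 40th percentiles, 24.3 to 32.6. AT1G49500 was among the brightest, with 938 and 961 in mature leaves, against 104 to 239 (median 170) in developing leaves. AT1G26390 read 131 and 144 in mature leaves and 1.7 to 12.9 (median 6.29) in developing leaves. The groups of these 3 genes did not overlap on any array.

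**Figure D1:**
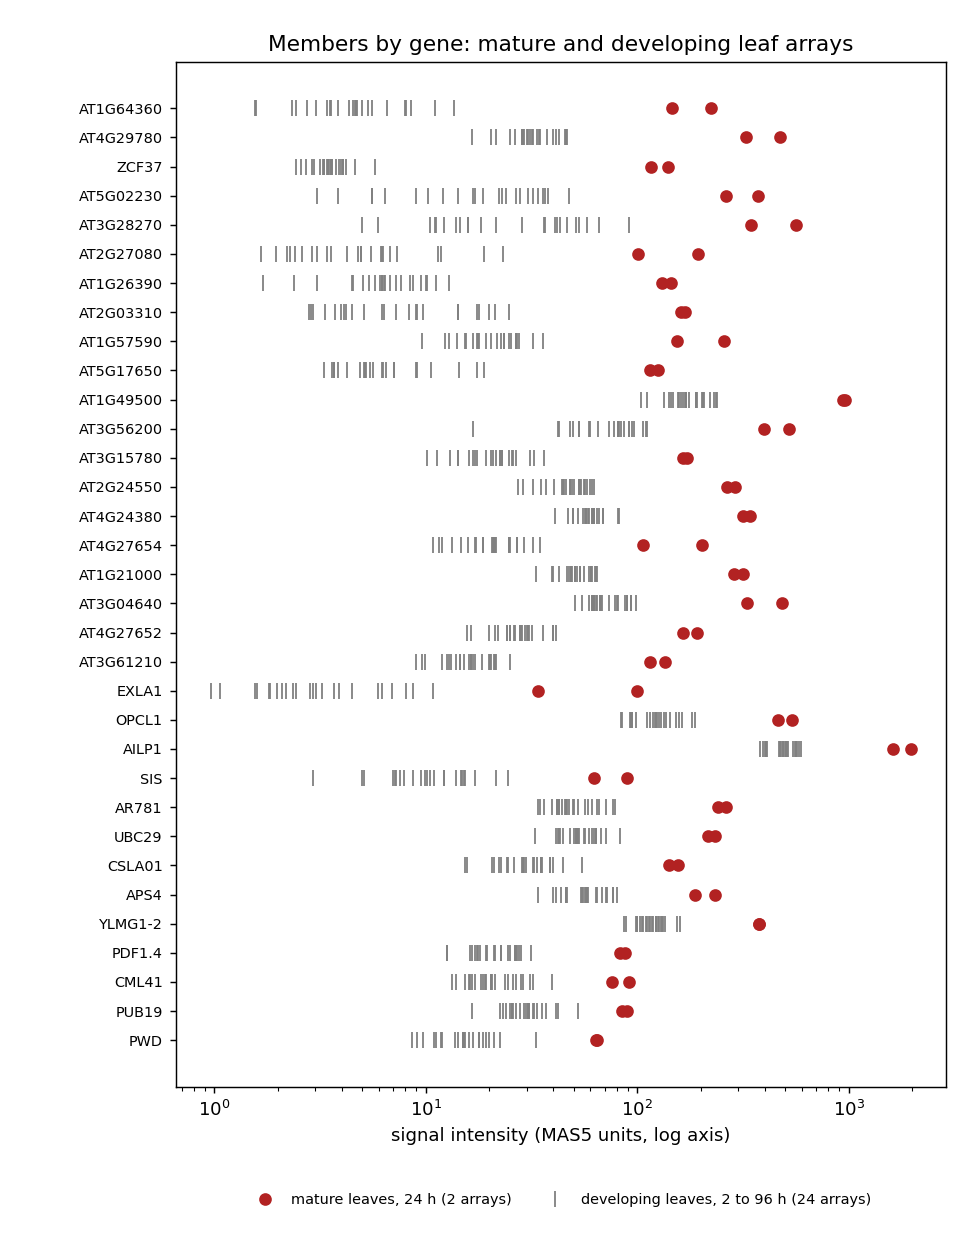
Signal of 33 members on each array (x axis, log scale): the 20 single genes with the highest scores, then the other genes with a symbol. Red dots are the 2 mature leaf arrays and grey ticks the 24 developing leaf arrays; in every gene drawn both red dots lie to the right of all ticks, from 34 and 100 for EXLA1 up to 1966 and 1619 for AILP1.

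AT2G24550, AT4G24380, AT1G21000 and AT3G04640 had scores between 2.01 and 2.06 and developing medians of 48.6 to 67.1, well above the dim end of the array. AT2G24550 read 289 and 265 in mature leaves, against 27.2 to 62.7 in developing leaves. AT1G21000 read 286 and 318, against 33.3 to 64.3. In both, the mature arrays lay far closer to each other than to any developing array. AT5G17650 and AT3G61210 were dimmer in developing leaves: AT5G17650 read 115 and 125 in mature leaves, against 3.3 to 18.9 (median 5.52). AT3G61210 read 135 and 114 in mature leaves, against 9.01 to 25.1 (median 16.2). AT1G57590 read 154 and 257 in mature leaves, against 9.61 to 35.7 (median 21.1), with the wider spread between its mature arrays.

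The brightest single genes lay further down the ranking. AT2G46220 read 1503 and 1384 in mature leaves, against 278 to 580 (median 395) in developing leaves, and its score was 1.58. AT1G75460 read 1050 and 1173, against 196 to 359 (median 274), and its score was 1.76. Both were clearly measured in developing leaves too, with no overlap between the groups.

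Among the genes with a symbol, OPCL1 encodes a peroxisomal ligase that activates a jasmonate precursor for the last steps of jasmonate synthesis. It read 542 and 465 in mature leaves; in developing leaves it ran from 83.8 to 188 with a median of 122. OPCL1 was thus measured clearly in both, with a score of 1.65 and no overlap. Of 44 genes on a list of jasmonate synthesis, signalling and wounding, 4 others were tested, and in the comparison of mature with developing leaves at 24 h 2 of them, ORA47 and JMT, were higher and 1 lower (limma, adjusted p under 0.05; of all probe sets tested, 54.8% were called, 24.1% higher and 30.7% lower). ORA47, a transcription factor of jasmonate synthesis, had itself been taken into the 200 by its score before it was left out by name; without it 1 of 3 was higher and 1 lower. It read 555 and 373 in mature leaves and 17.9 to 54.1 in developing leaves at 24 h. JMT, which methylates jasmonate, read 59.0 and 79.5, against 23.4 to 38.1. The thionin THI2.1 was lower in mature leaves, at 15.7 and 18.4, against 30.4 to 80.7.

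CML41, a calmodulin-like calcium sensor, read 91.5 and 76.1 in mature leaves, and 13.3 to 39.4 (median 20.3) in developing leaves. Of 5 other calmodulin-like genes tested, 2 were higher in mature leaves than in developing leaves at 24 h and none was lower. In that comparison 24.1% of all probe sets tested were higher and 30.7% lower. CML38 read 54.2 and 28.8 in mature leaves, against 1.85 to 12.5; CML23 read 27.1 and 41.3, against 2.17 to 10.0. Both were below the mature signal of 60 that a member needs. On the list of touch, calcium and rapid stress genes, 6 of the others were tested, of which 3 were higher (STZ, PUB24 and CML38) and PUB23 was lower. STZ, a zinc finger repressor of stress genes, read 451 and 482 in mature leaves, against 24.5 to 50.9 in developing leaves at 24 h; its difference between 96 and 24 h was over the limit for members.

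Among the members with a symbol, a pair belong to the ubiquitin pathway at different steps. UBC29, a conjugating enzyme that carries ubiquitin, read 215 and 232 in mature leaves, and 32.9 to 82.6 (median 52.3) in developing leaves. PUB19, a U-box ligase that passes ubiquitin on to proteins, read 84.7 and 89.6 in mature leaves, and 16.4 to 52.4 (median 30.1) in developing leaves. PUB19 was near the lower edge of the choice with a score of 1.08. Of 6 other U-box ligases tested, 3 were higher in mature leaves (PUB24, PUB25 and PUB26) and PUB23 was lower (of all probe sets tested, 24.1% were higher and 30.7% lower). PUB24 read 108 and 105 in mature leaves, against 15.3 to 39.7 in developing leaves at 24 h, whereas PUB23 read 19.8 and 14.4, against 36.6 to 67.3.

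Both cell wall members with a symbol come from families active in wall building or loosening. EXLA1, an expansin-like gene, read 99.5 and 33.8 in mature leaves, against 0.958 to 10.8 (median 2.89) in developing leaves, so its mature arrays differed widely from each other while both stayed above all developing arrays. CSLA01, of a family of mannan synthases, read 157 and 141 in mature leaves, against 15.4 to 54.7 (median 29.4). Of 14 other expansins tested, 1 was higher in mature leaves and 7 were lower, and 6 did not pass the test (of all probe sets tested, 24.1% were higher and 30.7% lower). EXPA8 was the higher one, with 505 and 415 in mature leaves, against 40.1 to 67.7 in developing leaves at 24 h. EXLA2, the tested gene closest to EXLA1 by name, was lower in mature leaves, at 14.4 and 7.79, against 14.9 to 46.0. On the wider cell wall list of 65 genes, 11 others were tested, with 3 higher and 5 lower in mature leaves.

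APS4 encodes an ATP sulfurylase, which starts sulphate assimilation; it read 187 and 232 in mature leaves, against 34.0 to 80.5 (median 57.1) in developing leaves. AILP1, named for its likeness to an aluminium-induced protein, was the brightest single gene of all, at 1966 and 1619 in mature leaves, against 379 to 593 (median 499) in developing leaves. PDF1.4, of the plant defensin family, read 87.2 and 82.8, against 12.6 to 31.3 (median 21.9). PWD, the gene at AT4G24450 named for a dikinase that phosphorylates starch, read 63.6 and 64.5 in mature leaves and 8.61 to 33.2 in developing leaves; the gene table gives the same name to another gene. YLMG1-2 read 377 and 378, against 86.2 to 159, and SIS, named for induction by salt, read 62.2 and 89.0, against 2.91 to 24.4.

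For the other lists no member was matched by name, which leaves the 111 unlisted members and the 68 locus codes unassigned; APS4 is not on the sulphur list, and PWD could not be matched to the starch list because of its shared name. Without SAG29, which its score had taken into the 200, 5 senescence genes were tested, of which 4 were higher than in developing leaves at 24 h and none was lower, among them PPDK, a pyruvate dikinase, at 653 and 812 in mature leaves, against 7.47 to 17.4. Autophagy genes were higher in 6 of 10 and lower in none. In this comparison 54.8% of all probe sets tested were called, 24.1% higher and 30.7% lower. Of 16 genes of sugar transport, starch and starvation, again without SAG29, 7 were higher and 3 lower, and of 10 of photosynthesis and photoprotection 5 were higher and 1 lower. Of 4 of abscisic acid, drought and cold 3 were higher and 1 lower. The remaining lists held 6 tested genes of ethylene and auxin (3 higher, none lower), 4 of glucosinolates and flavonoids (2 higher, 2 lower), 3 of nitrogen, sulphur and phosphate (1 higher, none lower) and 2 of salicylate and defence (both higher). The median log2 difference between mature and developing leaves at 24 h was 0.95 for these senescence genes, 0.45 for autophagy, 0.26 for sugar and starch and -0.10 for all probe sets tested; for the members it was 1.78, as the choice requires.

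How far the choice rests on either mature array was read by repeating it with only 1 of them and looking at the other. Choosing with replicate 1 gave 197 probe sets, 179 of them members; their median score was 1.57 in replicate 1 and 1.49 in replicate 2. Of the 197, 173 kept a score over 1 in replicate 2, and 196 lay above all developing arrays there, against 20.0% of all probe sets tested. Choosing with replicate 2 gave 196 probe sets, 173 of them members, with medians of 1.51 in either array; 167 kept a score over 1 in replicate 1, and all 196 lay above the developing arrays, against 20.1% of those tested. The developing arrays are shared by both readings, so these are descriptions of the mature arrays and not tests.

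The mature arrays differed more in these members than in the pool they came from. The score uses the mean of these same 2 arrays, so a high reading on either helps a probe set in. The comparison with the pool is therefore a description and not a test. Replicate 1 was the higher in 120 members and replicate 2 in 76. The difference passed 0.5 on the log2 scale in 31 members (15.8%), against 2.66% of the 6268 probe sets that met both limits, and 24 of the 31 were higher in replicate 1. The median size of the difference was 0.18 in members and 0.12 in the 6268. Among single genes EXLA1 had the widest difference (1.21, replicate 1 minus replicate 2); an unlisted member that read 210 and 65.4 had a wider one (1.47). AT2G27080 read 194 and 101 (0.85), AT4G27654 read 203 and 106 (0.84), and AT3G24460 differed the other way at 51.2 and 110 (-0.90). With 2 arrays the spread of a mature value is itself poorly known, and for these genes the mature level is best read as the pair of values.

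**Figure D2:**
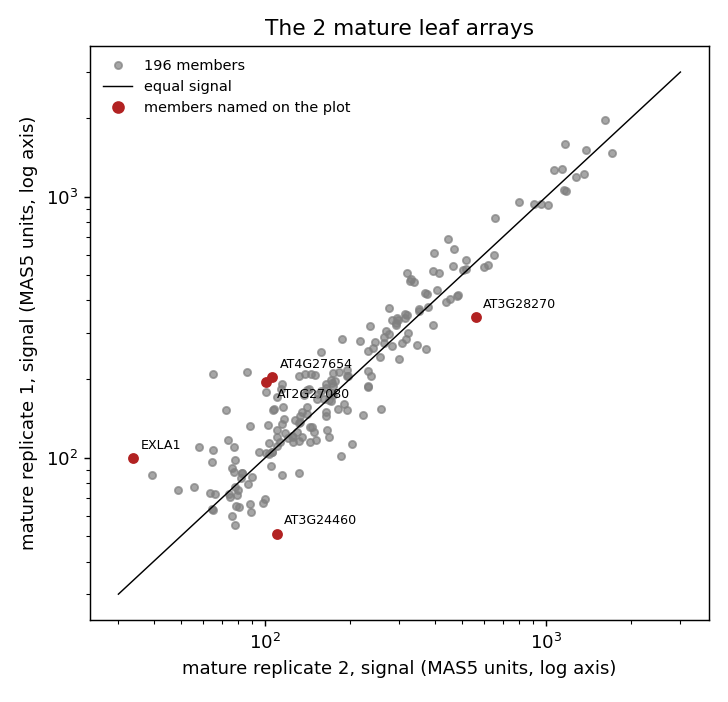
Signal of each of the 196 members on the 2 mature leaf arrays (x axis replicate 2, y axis replicate 1, both log scales); the line marks equal signal and red points are named. Points spread more widely at low signal, and EXLA1, at 33.8 in replicate 2 and 99.5 in replicate 1, lies farthest from the line among the named genes.

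Within developing leaves single members differed between times while their mean hardly did. The 6 developing means of a member spanned a median of 0.40 and at most 2.73 on the log2 scale. The mean of log2(signal + 16) over the 196 members was 7.75 in mature leaves, and 5.74, 5.72, 5.77, 5.81, 5.87 and 5.88 in developing leaves at 2, 4, 12, 24, 48 and 96 h. The mean over all probe sets tested stayed between 6.73 and 6.81 on every array. The highest values at 24 and 48 h, 5.93 and 5.94, were those of replicate 1 of each time; these arrays also had the highest cre spike-in signal (3730 and 3603, against at most 1943 elsewhere). Without them the means at 24 and 48 h were 5.77 and 5.85. The choice bounds the difference between 24 and 96 h for each member and penalises a high developing mean. Similar means at 24 and 96 h were thus set in advance, while means at the other times were limited only from above. No trend is tested.

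**Figure D3:**
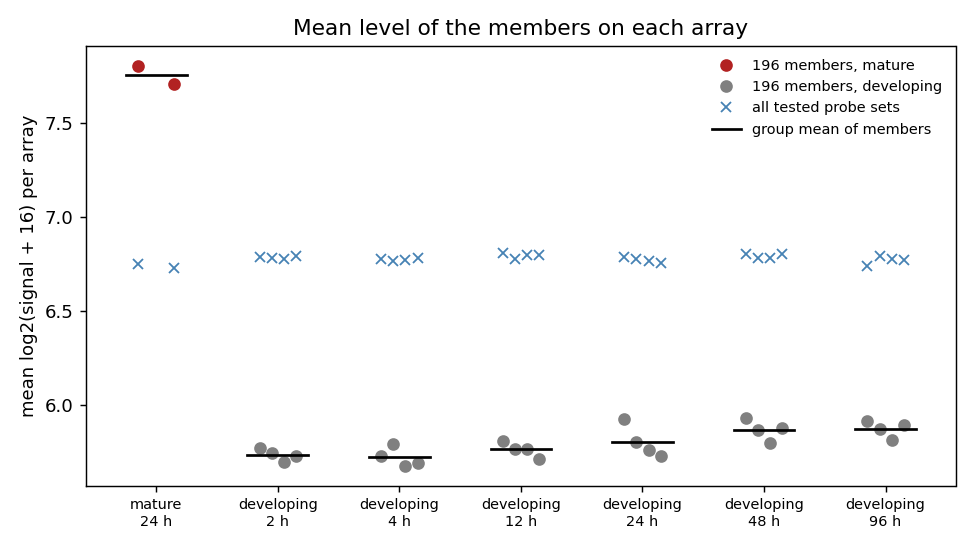
Mean of log2(signal + 16) over the 196 members on each array (dots; red for mature, grey for developing leaves, black bars for group means) and over all probe sets tested (blue crosses). The mature arrays stand at 7.71 and 7.80, the developing arrays between 5.68 and 5.94, and the crosses between 6.73 and 6.81 in all groups.

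The time of the highest developing mean was uneven. It fell at 48 or 96 h in 111 of the 196 members (56.6%), against 28.9% of the 6268 probe sets that met both limits. By time, 8 members were highest at 2 h, 26 at 4 h, 42 at 12 h, 9 at 24 h, 53 at 48 h and 58 at 96 h. For the 6268, 36.9% were highest at 12 h, 13.4% at 48 h and 15.5% at 96 h. The highest developing mean is part of the score, so the count is a description.

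The time of sampling was not in the rule for the comparisons of 4, 12 and 24 h with 2 h or of 48 h with 24 h, although the score caps every developing mean. The first 3 share the 2 h arrays. At 4 h 1 member, an unlisted probe set, was called lower than at 2 h, and no member was called without replicate 2, 3 or 4 at 2 h or replicate 4 at 4 h, or in a fit on those groups alone (0.510% of members; of all probe sets tested, 2.04% were called, 1.36% higher and 0.681% lower). At 12 h 37 members were called, 22 higher and 15 lower (18.9%, against 28.6% of all tested, 15.1% higher and 13.5% lower). At 24 h 12 were called, 8 higher and 4 lower (6.12%, against 9.21%, of which 4.33% higher and 4.88% lower). Between 48 and 24 h none was called (0% of all tested); array weights called 4 members and 500 of all, and leaving out replicate 1 at 24 h called no member and 83 of all. In the unweighted fit 12 members and 1655 of all probe sets had an unadjusted p under 0.05. All calls are from limma with p-values adjusted over the 16154 probe sets. Nothing is read from the members' shares beside those of all probe sets. The score penalises a high developing mean, and the 29 members below 24.3 on every developing array entered the test only through their mature arrays.

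At 12 h, 13 of the called members were single genes, 9 higher and 4 lower. AT3G02910 read 70.4, 75.5, 71.4 and 58.9 at 12 h, against 34.5, 36.0, 34.4 and 40.4 at 2 h. Its groups did not overlap and it rose by 0.70 ± 0.13 (log2, SE; limma adjusted p = 0.00014). At 24, 48 and 96 h its means were 46.5 ± 9.59, 50.3 ± 13.5 and 49.2 ± 6.02 (SD, n = 4 arrays each), below the 12 h mean of 69.0 ± 7.13. Its mature arrays read 208 and 151.

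AR781 had the same shape: 76.8, 70.8, 78.5 and 65.7 at 12 h, against 49.7, 39.7, 41.9 and 42.6 at 2 h, a rise of 0.58 ± 0.12 (limma adjusted p = 0.00066) with no overlap. Its 24 h mean was 44.3 ± 12.0, close to that at 2 h, and its mature arrays read 262 and 241. AT3G56200 read 86.7, 96.8, 94.5 and 77.6 at 12 h, against 49.8, 73.8, 53.2 and 47.8 at 2 h. The rise of 0.55 ± 0.18 (limma adjusted p = 0.024) was lost without any one of 5 arrays, namely replicates 1, 3 and 4 at 2 h and replicates 2 and 3 at 12 h (adjusted p up to 0.069).

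AT5G59080 went down at 12 h. It read 8.55, 10.9, 8.44 and 7.64 at 12 h, against 33.8, 24.8, 19.9 and 27.2 at 2 h, and fell by 0.76 on the log2 scale (SE 0.15, limma adjusted p = 0.0002). Every 12 h array lay below 24.3, so the size of the fall is uncertain. Under other settings the change ranged from -1.46 to -0.31 (limma adjusted p at most 0.0015). Its means at 24, 48 and 96 h were 30.7 ± 6.94, 33.6 ± 8.17 and 37.1 ± 5.26, and the 12 h mean of 8.88 ± 1.41 was the lowest of the 6 developing times. AT5G02230, one of the highest scores (mature arrays 262 and 372), read 5.55, 10.2, 3.85 and 3.07 at 12 h, against 36.7, 5.59, 16.7 and 14.2 at 2 h. These groups overlapped. The change of -0.60 ± 0.23 (limma adjusted p = 0.049) was lost without any one of 6 arrays (replicates 1, 3 and 4 at either time), and without replicate 1 at 2 h it was -0.37 (adjusted p = 0.24). APS4 was also called at 12 h, with 62.0 ± 7.26, against 44.6 ± 3.08 at 2 h (0.36 ± 0.13, limma adjusted p = 0.036).

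At 24 h, 6 of the called members were single genes, 4 higher and 2 lower than at 2 h. AT3G28270 read 57.9, 28.6, 41.7 and 43.1 at 24 h, against 13.9, 18.3, 15.9 and 12.2 at 2 h, and rose by 0.90 ± 0.20 (limma adjusted p = 0.0041). It stayed at that level at 48 h (55.5 ± 25.0) and 96 h (50.0 ± 12.5), still far below the mature arrays at 345 and 563. AT3G26510 read 173, 160, 129 and 117 at 24 h, against 80.4, 78.9, 80.1 and 71.1 at 2 h, a rise of 0.77 ± 0.11 (limma adjusted p = 3.3e-05). It was also higher at 12 h (104 ± 11.2), and its mature arrays read 440 and 409.

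AT2G03310 was lower at 24 h, with 6.19, 4.11, 3.98 and 2.92, against 7.21, 17.4, 9.66 and 21.3 at 2 h (-0.53 ± 0.16, limma adjusted p = 0.029). All its developing means, and every array compared here, lay below 24.3. Its mature arrays alone satisfied the filter for testing, and the comparison is between dim signals. It lost its call without any one of 5 arrays, namely replicates 2 and 4 at 2 h and replicates 2, 3 and 4 at 24 h (adjusted p up to 0.13). Mature leaves read 168 and 162. AILP1 read 411, 406, 379 and 392 at 24 h, against 583, 506, 562 and 593 at 2 h. It fell by 0.48 on the log2 scale (SE 0.090; limma adjusted p = 0.00069), the groups did not overlap, and its means at 48 and 96 h were 481 ± 60.4 and 469 ± 44.4. In AILP1 developing leaves thus read lower at 24 h than at 2 h, while mature leaves at 24 h read higher than both, at 1966 and 1619. AT1G11050 read 48.1, 49.4, 49.2 and 37.2 at 24 h, against 25.7, 27.8, 28.8 and 42.5 at 2 h. Its groups overlapped, and its change of 0.40 ± 0.13 (limma adjusted p = 0.047) was lost without any one of 6 arrays (replicates 1, 2 and 3 at either time; adjusted p up to 0.14).

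**Figure D4:**
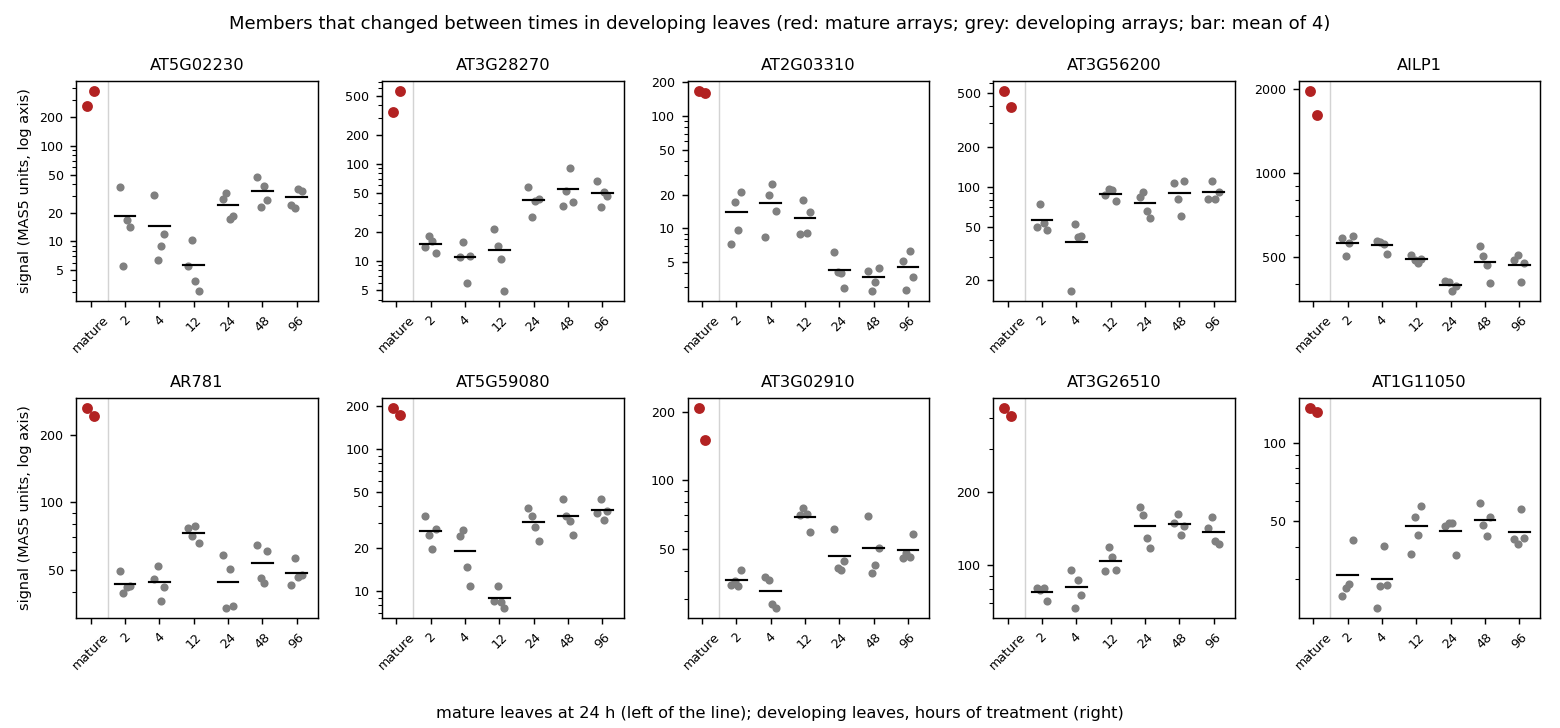
Signal (y axes, log scales that differ between panels) of 10 members called between times: mature arrays in red left of the line, developing arrays in grey at 2 to 96 h, bars for means of 4. AT5G59080 is lowest at 12 h (mean 8.88), AT3G02910 and AR781 are highest there among developing leaves (69.0 and 73.0), and every red point lies above all grey points of its panel.

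Members deviated from their group means together only slightly. Over the 24 developing arrays the mean pairwise correlation of these deviations was 0.052 among members and 0.0044 among all probe sets tested. It was 0.060 in the 147 members that reached 24.3 in some developing group and 0.042 in the 49 that did not. The points share arrays and the authors' scaling.

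On the genome the 82 genes were spread over all 5 chromosomes: 25 on chromosome 1, 13 on 2, 17 on 3, 9 on 4 and 18 on 5, and chromosome 4 held 11.0% of them, against 14.4% of all single-gene probe sets. In a pair of places neighbouring genes were both members. AT4G27652 and AT4G27654 adjoin: the first read 191 and 165 in mature leaves and 15.6 to 41.1 in developing leaves, and the second 203 and 106, against 10.8 to 34.8. AT3G15770 and AT3G15780 also adjoin, at 72.6 and 66.1 in mature leaves, against 8.26 to 32.3, and at 165 and 172, against 10.1 to 36.1. Cross-reading of neighbouring transcripts was not tested. AT1G72800, AT1G72890 and AT1G72940 lie within 10 genes of their next member on chromosome 1, with 8 and 4 genes between. The same window held AT4G24380 with PWD (7 between) and AT5G39520 with AT5G39590 (6 between). For the 3 on chromosome 1, mature means exceeded the highest developing means by 1.65, 1.40 and 1.81 on the log2(signal + 16) scale.

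The lower edge of the choice was gradual. AT5G58570 was just inside with a score of 1.06 (96.3 and 64.8 in mature leaves, against 11.1 to 35.2 in developing leaves), as was PWD with 1.07. Just outside were ALDH7B4, an aldehyde dehydrogenase, with 1.05 (476 and 535, against 162 to 255), AT1G66900 with 1.05 and an unlisted probe set with 1.04. The limit on the difference between 96 and 24 h mattered more. Without it 685 probe sets had a score over 1, against 230 with it; of the 455 set aside, 441 were higher at 96 h than at 24 h and 14 lower. The 200 highest scores chosen without that limit shared 76 probe sets with the 200 taken under it, before genes were left out by name. Turning the rule round, for probe sets below the lowest developing mean, gave 209 with a score over 1 from 7316, the largest at 4.53. The rule itself gave 230 from 6268. The signal limit fell on developing leaves in the first pool and on mature leaves in the second. The turned rule was not run without the limit on 96 and 24 h.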

How the data were processed

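ATH1 arrays were hybridised with biotin-labelled total RNA of leaves. The deposited values are linear signal intensities, which the authors made using MAS5 (no version stated), per the submitters' processing notes; the trimmed mean (2% of values cut at each end) of each deposited intensity column was 100. Array medians lay between 39.7 and 47.4, and no column was left unused. Detection calls were not used here.

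Values were taken as log2(value + 16), so changes of dim probe sets are understated. Of the probe sets without controls, 16154 exceeded their array's 40th percentile on at least 2 arrays and were tested. The 26 arrays entered one linear model of 7 group means, using lmFit and eBayes(trend = TRUE) of limma 3.58.1 under R 4.3.3; Benjamini-Hochberg adjustment of the p-values ran over all tested probe sets, and the threshold was 0.05. The fit was tested on simulated data with known changes. Precision is limited by the number of arrays: between groups of 4, log2 changes had a median 95% half-width of 0.27.

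The members and gene lists were chosen with earlier results of these data known. Named genes are the 20 single genes with the highest scores, those with a symbol, up to 5 called members with the largest change per comparison, the 3 lowest scores and the 3 just outside, and the 3 with the widest mature difference; a few others, such as AT1G75460, AT2G46220, APS4 at 12 h and the neighbouring genes, were chosen after their values were seen, as were the other genes named from the lists. List names were matched with case, and FDH was dropped because the table gives that name to formate dehydrogenase; the calmodulin-like, expansin and U-box families replaced broader name patterns. These 3 changes, and list counts without ORA47 and SAG29, were chosen after seeing the data. List genes are counted through tested probe sets that could be matched by name, so each list is judged on a small share of its genes. Names came from a platform annotation and a gene table of assembly TAIR10.1 (80 of the 82 genes matched); no coordinates are given because no build is named for the arrays.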

Additional observations from a re-analysis of the deposited data

Results flagged for a closer look

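The 26 groups of 4 arrays examined covered the members' mean level at the 6 developing times and the named members called between times. In 2 of them, both of single genes, 1 array was set apart from the other 3 by most of the group's range. Chance alone sets apart about 1 group in 20. AT3G26510 read 71.1 on developing 2 h replicate 4, against 78.9 to 80.4 on the others. AT1G11050 read 37.2 on developing 24 h replicate 4, against 48.1 to 49.4 on the others; the higher call of this gene at 24 h held without that array.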

How the results depend on the processing

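With a pseudocount of 64 the rule shared 129 of the 196 members, with the 96 and 24 h means allowed to lie 0.5 apart 118, and with 0.15 127; without 1 mature array it shared 173 to 179, without 1 developing replicate number 159 to 167, and without the 2 developing arrays whose spike-in stood out (an alternative chosen after seeing the data) 163. No score of the 39 named genes changed sign in 390 values (lowest 0.57), and 93 moved by more than the replicate SD. These genes were chosen with scores of at least 1.05, so the kept sign follows largely from the choice and tests nothing. Members called at 4 h versus 2 h numbered 1, against 0 in a fit on those groups alone, 2 with the replicate number as a block, 4 with array weights and 0 to 2 when 1 array was left out; without 4 h replicate 1 the member called was higher and not lower. For 48 h versus 24 h array weights gave 4 members, and the replicate block none (19 of all probe sets tested). Counts at 12 h ranged from 29 to 39 (replicate block 38) and at 24 h from 8 to 14 (replicate block 12). Of 160 recomputed changes with time in named genes 129 kept their call, 31 lost it and none reversed; the losses are those of AT5G02230, AT3G56200, AT2G03310 and AT1G11050. The causes were not tested. The labels do not say that replicate numbers pair samples, and deviations of same-numbered arrays correlated at -0.057 to 0.52; 14 of the 24 developing arrays were closest to an array of their own number, a hint from the data only. The comparison of promoter motifs was not run. Signals near the bottom of the scale, and 2 mature arrays, limit what can be read.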
